A study of Mus musculus with 27 samples.

Results

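The motile cilia genes are the genes that build, power and specify the beating cilia of the airway surface. They were taken by name from the linear RNA table of whole mouse lung: symbols starting with Dnah, Dnaic, Dnai, Dnaaf, Cfap, Rsph, Tekt or Drc followed by a digit, together with Foxj1, Tppp3, Mcidas, Ccno and Rfx3. Of the 21742 genes in the table, 67 matched. A level of at least 1 TPM (transcript abundance per length, scaled to a fixed total) in at least 5 of the 27 libraries was reached by 66 of the 67 and by 17437 genes in all. Only Rsph6a, a radial spoke gene, missed it, with 0.433 ± 0.0761 TPM (SD, n = 5) in Saline lungs and 0.352 ± 0.0934 (SD, n = 10) in CDG_HDM lungs. Neither the name patterns nor the level filter used a difference between groups, but earlier results of these data were known when the gene set was chosen.

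A motile cilium holds a ring of paired microtubules around a central pair. Outer and inner dynein arms pull the paired microtubules past each other, radial spokes and the nexin-dynein regulatory complex shape the beat, and tektins and many CFAP proteins stiffen and stabilise the microtubule wall. In the airway these cilia are carried by multiciliated cells, where MCIDAS and cyclin O promote the formation of many basal bodies and FOXJ1 and RFX3 switch on the genes of the axoneme. TPPP3, a tubulin-binding protein, is widely used as a marker of lung ciliated cells. Many axonemal genes are also expressed in sperm.

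The libraries were made from the left lobe of the lung, the strain was BALB/c AnNHsd and the age 87 days, at the end of a 35-day protocol. The mice of the 5 Saline samples were not sensitized. The mice of the 10 CDG_HDM samples were sensitized in the lung with house dust mite extract given with cyclic di-GMP, a bacterial dinucleotide used as a mucosal adjuvant. The mice of the 6 Dex_CDGHDM samples were sensitized in the same way and received the glucocorticoid dexamethasone, 3 doses of 3 mg/kg intraperitoneally on days 11, 18 and 25. The mice of the 6 AM155 samples received an antisense oligonucleotide against miR-155, 3 doses of 2 mg/kg intravenously in lipid nanoparticles on the same days. The sample labels of the AM155 mice do not state sensitization, and no group used here received nanoparticles without the oligonucleotide. Differences are in log2(TPM + 1), which understates the change of low genes. They come with standard errors and Benjamini-Hochberg adjusted p-values from limma, fitted over all 17437 genes and all 27 libraries. The labels number the samples of a group and do not say that each is a separate mouse, so p-values measure the spread between these samples. A gene is called changed at an adjusted p of 0.05 or less.

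Foxj1 and Tppp3 were detected in every library, at no less than 20.2 and 126 TPM. Both are members, so their detection is no separate check of the tissue. Of 9 male germ cell genes listed as a check, because sperm share the axoneme, 4 reached the level filter and none was called in the comparison of CDG_HDM with Saline by limma (lowest adjusted p = 0.218). Their summed level was 6.83 to 12.7 TPM in Saline and 7.02 to 11.8 TPM in CDG_HDM. The linear table did not sum to the same total in every library. It held 806400 to 858500 TPM in Saline, 628200 to 798500 in CDG_HDM, 542300 to 771000 in AM155 and 629400 to 768000 in Dex_CDGHDM. TPM outside both tables made up 9.57% to 11.1% of the full scale in Saline and 15.2% to 32.8% in CDG_HDM. The circular RNA table held 21.9%, 23.0% and 24.1% of the TPM in AM155 5, AM155 6 and Dex_CDGHDM 4, and 3.29% to 11.0% in the other libraries. Results that rest on these 3 libraries are given below with and without them.

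Upstream sequence was available from RefSeq (assembly GRCm38.p6) for 53 of the 66 members. Tppp3, Foxj1, Rsph10b, Cfap97, Cfap65, Rsph1, Dnah3, Rsph4a, Cfap54, Cfap157, Cfap53, Cfap73 and Dnaaf1 were not among them. The 250 bases before each start were searched on both strands for GTTGCC, the core of the site bound by RFX factors, for the longer GTTGCCATG, which contains that core, and for GTAAACA, a forkhead site. The core was found in 17 of the 53 members (32.1%), against 12.0% of 13251 tested genes with a promoter entry and 10.4% of all 32851 promoters in the table. Within 100 bases of the start it was found in 12 members (22.6%), against 5.64% of the tested genes. The longer form occurred in Cfap161 and Cfap74 (3.77% of members, 0.642% of all promoters), and the forkhead site in 4 members (7.55%, against 3.17% of all promoters). A match is a string of letters, not a bound site. The stretches shown here are those of 6 members that fell and carry the core close to the start, followed by Dnaaf3, the member that rose and has no match. Each is the 100 bases on the coding strand that end just before the more upstream of the RefSeq and GENCODE starts. Capitals mark GTTGCC or its reverse complement GGCAAC. In GRCm38 coordinates they are Cfap161 (chr7:83794881-83794980, minus strand), Cfap46 (chr7:139683818-139683917, minus strand), Dnaic2 (chr11:114727308-114727407, plus strand), Cfap44 (chr16:44394696-44394795, plus strand), Dnah10 (chr5:124724985-124725084, plus strand), Tekt2 (chr4:126325689-126325788, minus strand) and Dnaaf3 (chr7:4532466-4532565, minus strand).
Cfap161: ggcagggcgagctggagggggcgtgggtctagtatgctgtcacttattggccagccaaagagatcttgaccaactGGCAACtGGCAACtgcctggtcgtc
Cfap46: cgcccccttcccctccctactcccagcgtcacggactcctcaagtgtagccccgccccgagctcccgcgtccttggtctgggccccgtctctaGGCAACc
Dnaic2: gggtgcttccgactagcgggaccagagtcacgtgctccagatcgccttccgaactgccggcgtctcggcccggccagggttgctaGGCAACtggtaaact
Cfap44: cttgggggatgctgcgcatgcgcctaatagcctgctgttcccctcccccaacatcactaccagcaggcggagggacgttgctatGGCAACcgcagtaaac
Dnah10: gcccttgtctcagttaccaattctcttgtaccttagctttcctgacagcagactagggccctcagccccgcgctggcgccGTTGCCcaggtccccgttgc
Tekt2: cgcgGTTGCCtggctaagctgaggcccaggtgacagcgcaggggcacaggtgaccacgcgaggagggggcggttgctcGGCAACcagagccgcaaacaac
Dnaaf3: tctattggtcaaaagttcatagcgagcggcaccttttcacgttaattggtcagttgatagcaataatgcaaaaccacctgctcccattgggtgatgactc

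Of the 37 members with a promoter entry that fell in CDG_HDM against Saline, 15 carried the core. Of the 16 that did not fall, 2 did, Dnaaf2 and Mcidas. The median difference of the members with the core was -0.42 and that of the members without it -0.38. Within 100 bases of the start, 11 of the 37 and 1 of the 16 carried the core. A link between a match and the change was not tested.

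Sensitization was compared with saline first. Most structural genes of the cilium were lower in CDG_HDM lungs, and Tppp3 fell furthest, while Foxj1, Rfx3 and Mcidas of the transcriptional programme were not called with all libraries in the fit. Mcidas was called lower without Saline 4. Of the 66 members, 45 fell and 1 rose (limma, adjusted p of 0.05 or less), beside 22.8% of all genes that fell and 9.35% that rose. Counts by role and of cell markers below are to be read beside these shares. The median difference of the members was -0.40, against -0.10 over all genes tested. Below 0 lay 63 of the 66, against 69.2% of all genes. The 95% intervals of Foxj1 (-0.54 to 0.20) and Rfx3 (-0.45 to 0.15) included the members' median of -0.40, and that of Mcidas (-0.32 to 0.029) did not. A difference between the programme and the structural genes was not tested. The summed level of the 66 genes was 1208 ± 85.7 TPM in Saline (SD, n = 5) and 804.7 ± 100.9 TPM in CDG_HDM (SD, n = 10). The 5 Saline libraries lay between 1103 and 1310 TPM and the 10 CDG_HDM libraries between 671 and 931 TPM, with no overlap. This separation rested on Tppp3. Without Tppp3 the sum was 632.6 to 877.7 TPM in Saline and 524.5 to 709.6 TPM in CDG_HDM, and these ranges overlapped. In whole-lobe RNA, fewer ciliated cells and less RNA per ciliated cell cannot be told apart. For 16 of the 66 members every CDG_HDM library lay below every Saline library, which held for 8.92% of all genes. The 16 were Tppp3, Dnah2, Dnah6, Dnah9, Dnah10, Dnah11, Dnah12, Dnaic1, Dnaic2, Tekt4, Cfap44, Cfap46, Cfap52, Cfap65, Cfap70 and Cfap161.

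Tppp3 (chr8:105467493-105471526, minus strand, GRCm38, GENCODE M21) was also the most abundant member. It measured 391, 470, 459, 410 and 432 TPM in Saline 2, 4, 5, 8 and 10. In CDG_HDM its lowest, median and highest values were 126, 203 and 249 TPM. The highest sensitized lung thus stayed well below the lowest Saline lung. The difference was -1.14 ± 0.13 (SE; adjusted p = 7.38e-08, limma), a fold of 0.453 on the TPM + 1 scale. Foxj1 (chr11:116330704-116335399, minus strand), the master regulator of motile ciliogenesis, measured 38.7, 31.5, 45.9, 32.3 and 40.3 TPM in the same Saline libraries. Its lowest, median and highest values in CDG_HDM were 21.0, 33.2 and 47.8 TPM. The sensitized libraries spread both below and above the Saline range. The difference of -0.17 ± 0.18 had an adjusted p of 0.496 and a 95% interval from -0.54 to 0.20.

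Of the other members of the programme, Mcidas and Ccno were low in expression and Rfx3 was higher. Rfx3 (chr19:27761721-28011166, minus strand) measured 9.49, 8.68, 11.4, 14.0 and 12.0 TPM in Saline and 6.91, 9.87 and 16.1 TPM (lowest, median, highest) in CDG_HDM. Its difference was -0.15 ± 0.15 (adjusted p = 0.467, limma), and it was 0.0019 when the linear tables were rescaled to equal sums. Mcidas and Ccno, which encode the upstream activator of multiciliation and cyclin O, are neighbours on chromosome 13 (Ccno at 112987802-112990777 and Mcidas at 112993845-113000394, both on the plus strand). Mcidas measured 2.73, 1.73, 2.56, 2.59 and 2.90 TPM in Saline and 1.903, 2.105 and 2.537 TPM in CDG_HDM. Saline 4 lay below every sensitized library and the other 4 Saline libraries above every one. Its difference was -0.14 ± 0.085 (adjusted p = 0.201). Without Saline 4 it was -0.23 and passed (adjusted p = 0.0212, limma). Ccno measured 1.13, 1.09, 1.26, 0.98 and 1.44 TPM in Saline and 0.616, 0.885 and 1.14 TPM in CDG_HDM. Its difference of -0.21 ± 0.077 passed (adjusted p = 0.0367, limma), and it missed at 0.105 after rescaling to equal sums and at 0.0681 after quantile normalization. Without Saline 2, 5 or 10 or CDG_HDM 10, 12 or 13, left out in turn, its adjusted p was 0.0505 to 0.137.

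**Figure D1:**
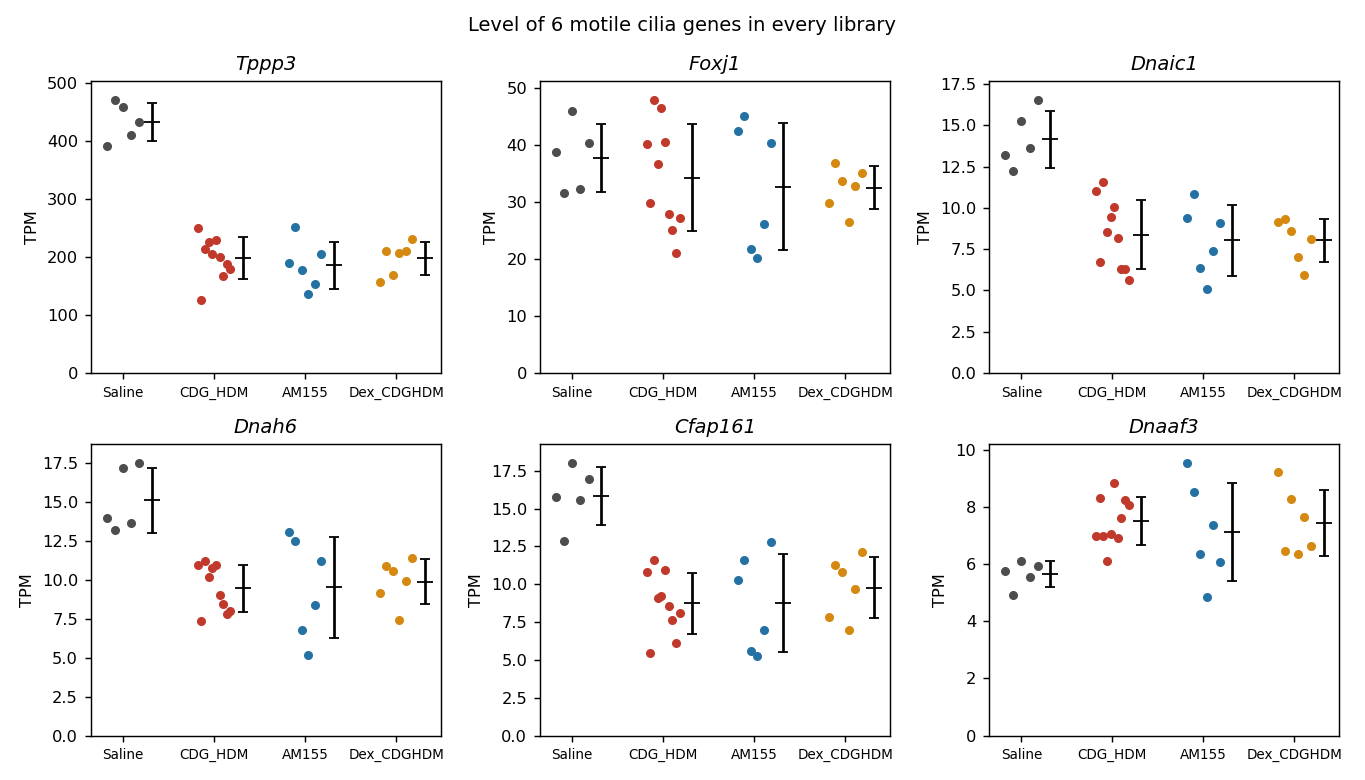
TPM of Tppp3, Foxj1, Dnaic1, Dnah6, Cfap161 and Dnaaf3 in each of the 27 libraries, by group. Points are libraries and bars are the mean ± SD of the group; Tppp3 lies at 391 to 470 TPM in Saline and at 126 to 249 TPM in CDG_HDM, while Foxj1 overlaps between all groups.

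Outer dynein arms supply most of the force of the beat, and 3 of their 5 heavy chain genes fell. Dnah9 measured 8.76, 7.65, 9.88, 7.51 and 10.1 TPM in Saline 2, 4, 5, 8 and 10, and 4.33, 5.41 and 7.02 TPM (lowest, median, highest) in CDG_HDM. The groups did not overlap, and the difference was -0.60 ± 0.15 (adjusted p = 0.00213, limma). Dnah11, which sits at the base of the cilium, fell by 0.53 on the log2 scale (adjusted p = 0.00185). Dnah5 (chr15:28203752-28472052, plus strand), the chain whose human counterpart is often mutated in primary ciliary dyskinesia, measured 13.0, 10.6, 14.3, 10.1 and 15.6 TPM in Saline and 6.81, 8.53 and 10.7 TPM in CDG_HDM. The highest sensitized library thus lay above the lowest 2 Saline libraries. Its difference was -0.48 ± 0.16 (adjusted p = 0.0227), and it missed at 0.068 without Saline 5 and at 0.0855 without Saline 10. The remaining chains, Dnah17 and Dnah8, are known mainly from sperm. Dnah17 differed by -0.10 ± 0.082 (adjusted p = 0.366). Dnah8 went the other way, with 3.08 to 9.48 TPM in Saline and 6.27 to 11.7 TPM in CDG_HDM. Its difference was 0.42 ± 0.18 (adjusted p = 0.0738), and it was called higher under median-of-ratios scaling, quantile normalization and rescaling to equal sums. Glo1 lies across the Dnah8 span on the opposite strand in GENCODE. An overlapping gene of the linear table was found for 17 of the 66 members, called falls among them. Rsph10b overlaps Pms2 on the same strand. Dnah14 overlaps Lbr, Dnaic1 Enho, Cfap100 Zxdc and Cfap43 Gsto1, all on the opposite strand. How reads of overlapping genes were assigned is not given in the sources used here.

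Inner dynein arms set the bend of the cilium, and each of their 10 measured heavy chain genes fell. Dnah6 (chr6:73017606-73221651, minus strand) measured 14.0, 13.2, 17.2, 13.6 and 17.5 TPM in Saline and 7.34, 9.60 and 11.2 TPM in CDG_HDM. There was no overlap, and the difference was -0.63 ± 0.15 (adjusted p = 0.0012, limma). Dnah14 (chr1:181576559-181815774, plus strand), the most abundant inner arm gene, measured 21.2, 15.02, 20.3, 17.1 and 21.2 TPM in Saline and 8.34, 12.7 and 16.9 TPM in CDG_HDM. Saline 4 fell inside the sensitized range, and the difference was -0.53 ± 0.12 (adjusted p = 0.00123). Dnah2, Dnah10, Dnah3 and Dnah12 differed by -0.55, -0.54, -0.54 and -0.50. Dnah1, a chain of the inner arms that is also needed in sperm, differed by -0.38. Dnah7a, Dnah7b and Dnah7c, all on chromosome 1, differed by -0.42, -0.33 and -0.29. These 3 genes are close copies of each other, and how reads were shared between them is not given in the sources used here, so their separate levels are uncertain.

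The intermediate chains anchor the outer arms, and both fell. Dnaic1 (chr4:41569775-41638158, plus strand) measured 13.2, 12.2, 15.2, 13.6 and 16.5 TPM in Saline and 5.66, 8.37 and 11.6 TPM in CDG_HDM. Every sensitized library lay below every Saline library, with a difference of -0.72 ± 0.15 (adjusted p = 0.000348, limma). Dnaic2 differed by -0.57 ± 0.13 (adjusted p = 0.00141), again without overlap.

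The Dnaaf genes encode cytoplasmic factors that preassemble dynein arms. Of 4 tested, 1 fell and 1 rose, beside 22.8% and 9.35% of all genes. Dnaaf5 fell, with a difference of -0.32 ± 0.097 (adjusted p = 0.012, limma). Dnaaf1 differed by -0.27 (adjusted p = 0.058) and Dnaaf2 by 0.0087 (adjusted p = 0.95). With tables rescaled to equal sums Dnaaf2 was called higher (0.16, adjusted p = 0.0219). Dnaaf3 (chr7:4522933-4532453, minus strand) rose and was the 1 member called higher in the unscaled table. It measured 5.75, 4.90, 6.12, 5.55 and 5.94 TPM in Saline and 6.11, 7.33 and 8.85 TPM in CDG_HDM. The lowest sensitized library lay just under the highest Saline library. The difference was 0.35 ± 0.11 (adjusted p = 0.0111). In GENCODE the Dnaaf3 span overlaps Tnni3, cardiac troponin I, on the same strand, and Tnni3 went the opposite way, from a mean of 109.6 TPM in Saline to 25.3 TPM in CDG_HDM.

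Radial spokes link the central pair to the dynein arms, and 2 of 6 tested genes fell, beside 22.8% of all genes. They were Rsph10b (-0.54, adjusted p = 0.00773, limma) and Rsph4a, a spoke head protein (-0.32, adjusted p = 0.0424). Rsph9 (chr17:46122035-46144216, minus strand), another spoke head protein and the most abundant spoke gene, measured 62.8, 45.6, 58.8, 70.8 and 63.3 TPM in Saline and 46.1, 52.5 and 60.1 TPM in CDG_HDM. Saline 4 lay below every sensitized library, Saline 5 within their range and the other 3 above it. The difference was -0.18 ± 0.092 (adjusted p = 0.139). Without Saline 4 it was -0.27 (adjusted p = 0.0149). Rsph9 overlaps Mrps18a on the opposite strand. Rsph1, Rsph14 and Rsph3a differed by -0.24, -0.22 and -0.13, none of them called.

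In the nexin-dynein regulatory complex, which limits sliding between microtubules, Drc1 (-0.52, adjusted p = 0.013) and Drc7 (-0.41, adjusted p = 0.0107) fell. Drc3, with the highest level of the 3, differed by -0.17 (adjusted p = 0.259, limma). Without Saline 4 Drc3 differed by -0.29 and was called lower (adjusted p = 0.0329). Of the tektins, filaments inside the microtubule wall, 4 of 5 fell. Tekt1 (chr11:72344722-72362442, minus strand) measured 20.6, 16.3, 22.2, 20.2 and 23.0 TPM in Saline and 11.9, 14.1 and 16.5 TPM in CDG_HDM. Only Saline 4 reached into the sensitized range, and the difference was -0.48 ± 0.12 (adjusted p = 0.00268). Tekt4, Tekt2 and Tekt5 differed by -0.56, -0.54 and -0.38, and the lowly expressed Tekt3 by -0.15 (adjusted p = 0.207).

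The CFAP genes, named for cilia and flagella associated proteins, are the largest set, and 19 of 26 fell while none rose. Cfap161 (chr7:83774101-83794880, minus strand), which encodes a protein of the microtubule interior, measured 15.8, 12.9, 18.0, 15.6 and 17.0 TPM in Saline and 5.48, 8.82 and 11.6 TPM in CDG_HDM. The ranges were apart, with a difference of -0.81 ± 0.17 (adjusted p = 0.000403, limma). Cfap46, of the central apparatus, measured 7.15, 5.88, 8.04, 6.81 and 8.50 TPM in Saline and 2.97, 4.24 and 5.46 TPM in CDG_HDM. These ranges were also apart, and the difference was -0.67 ± 0.15 (adjusted p = 0.000689). Cfap100, linked to the inner arms, differed by -0.64, Cfap65 by -0.64, Cfap44, of the tether that holds inner arm dynein, by -0.57 and Cfap70 by -0.55. The central apparatus genes Cfap221, Cfap54 and Cfap74 differed by -0.48, -0.47 and -0.40. Cfap52 and Cfap45, which encode proteins inside the microtubule wall, differed by -0.47 and -0.42. The other falls were those of Cfap73 (-0.47), Cfap157 (-0.44), Cfap206 (-0.43), Cfap57 (-0.42), Cfap126 (-0.34), Cfap58 (-0.32), Cfap43 (-0.31) and Cfap20 (-0.26). Not called were Cfap99 (-0.28), Cfap61 (-0.24), Cfap77 (-0.17), Cfap53 (-0.16), Cfap69 (-0.13), Cfap36 (-0.11) and Cfap97 (-0.081). Cfap61, of the radial spokes, had the highest mean level of the CFAP genes over all 27 libraries (32.44 TPM, with Cfap20 next at 32.01) and a wide spread, from 25.2 to 49.8 TPM in Saline and from 23.2 to 56.9 TPM in CDG_HDM.

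**Figure D2:**
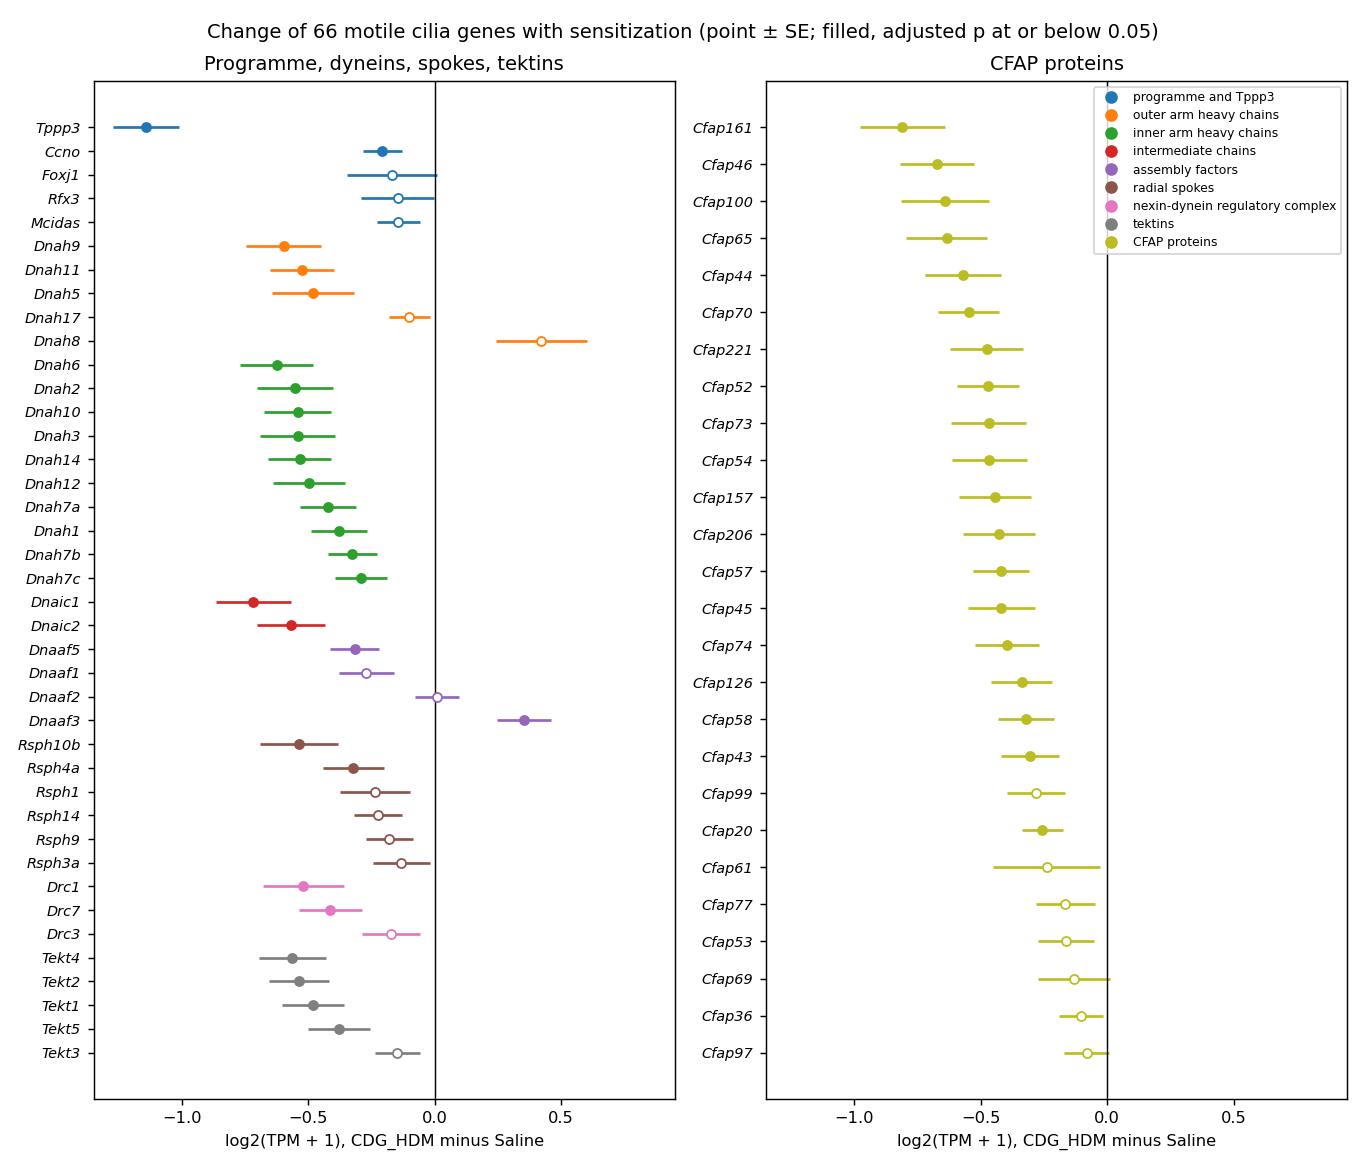
Difference in log2(TPM + 1) between CDG_HDM and Saline for each of the 66 members, grouped by role, as a point with its SE. Filled points had an adjusted p of 0.05 or less: 45 lie below 0 and 1, Dnaaf3, above it.

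Libraries within a group differed across many members at once. Saline 4 was the lowest Saline library for 47 of the 66 members and Saline 10 the highest for 40, yet Saline 4 had the highest Tppp3 value of all libraries. AM155 6 was the lowest of its group for 62 members and Dex_CDGHDM 4 for 55; these were also libraries with a large circular share. In CDG_HDM no library was the lowest for more than 24 members or the highest for more than 21. Without AM155 5, AM155 6 and Dex_CDGHDM 4, 48 members fell and 1 rose in CDG_HDM against Saline. Without Saline 4 and AM155 6, 54 fell and 1 rose. Shares of all genes called were not worked out for these fits, so it cannot be told whether only the members' counts moved. The members' median, read against that of all genes, moved little with the scaling. Rescaling the linear tables to equal sums raised the all-gene median by 0.14 (by 0.18 in Dex_CDGHDM and 0.24 in AM155 against Saline). It left the members 0.31 below that median, as in the unscaled table. With it 35 members were called lower and 3 higher (Dnah8, Dnaaf2 and Dnaaf3), beside 15.5% and 26.2% of all genes.

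**Figure D3:**
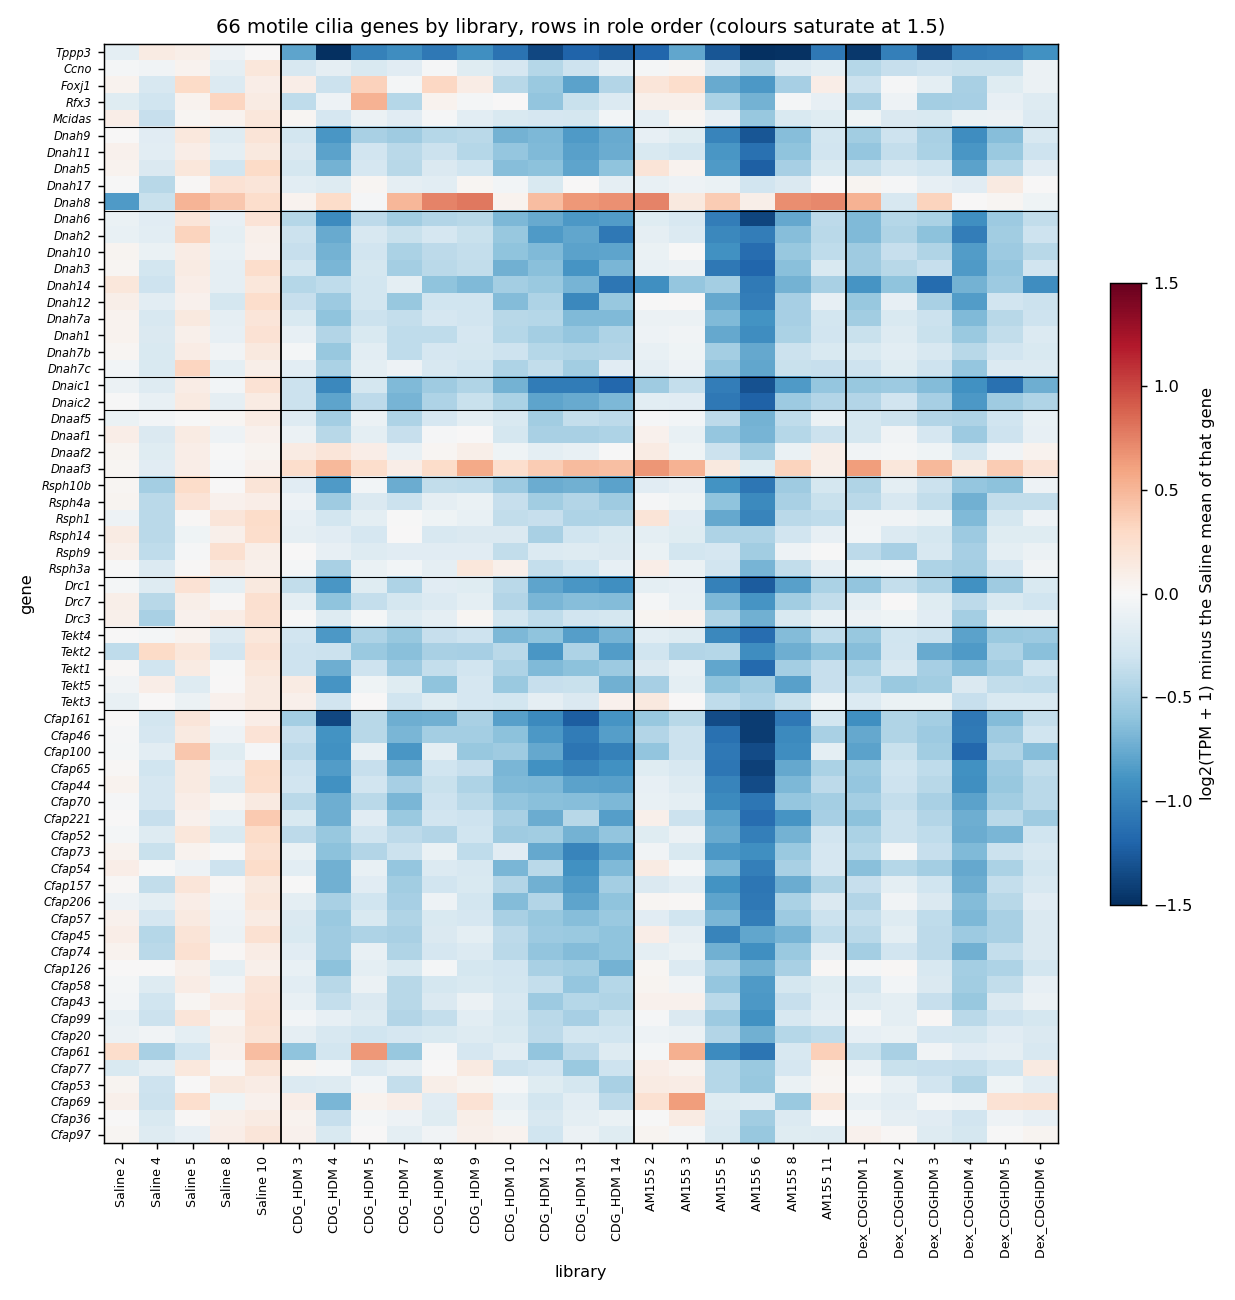
The 66 members (rows, in role order) in each of the 27 libraries (columns, by group), as log2(TPM + 1) minus the gene's mean over the Saline libraries; blue is lower and red is higher. Most rows are blue in all 3 other groups, deepest in AM155 6, which was the lowest of its group for 62 members; the Dnaaf3 row is red in all 10 CDG_HDM libraries.

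Ratios within a library do not depend on its scaling. Tppp3 over Foxj1 was 10.1, 14.9, 10.0, 12.7 and 10.7 in Saline 2, 4, 5, 8 and 10. In CDG_HDM its lowest, median and highest values were 4.23, 6.19 and 8.92, in AM155 4.46, 5.72 and 8.15, and in Dex_CDGHDM 5.00, 6.07 and 7.80. Each of the 22 other libraries thus lay below each Saline library. The summed level of the other 61 members, dynein arms to CFAP genes, over Foxj1 was 16.6 to 22.2 in Saline and 13.1 to 23.5 in CDG_HDM. Here the ranges overlapped. Both ratios were chosen after the values were seen and are given without a test.

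**Figure D4:**
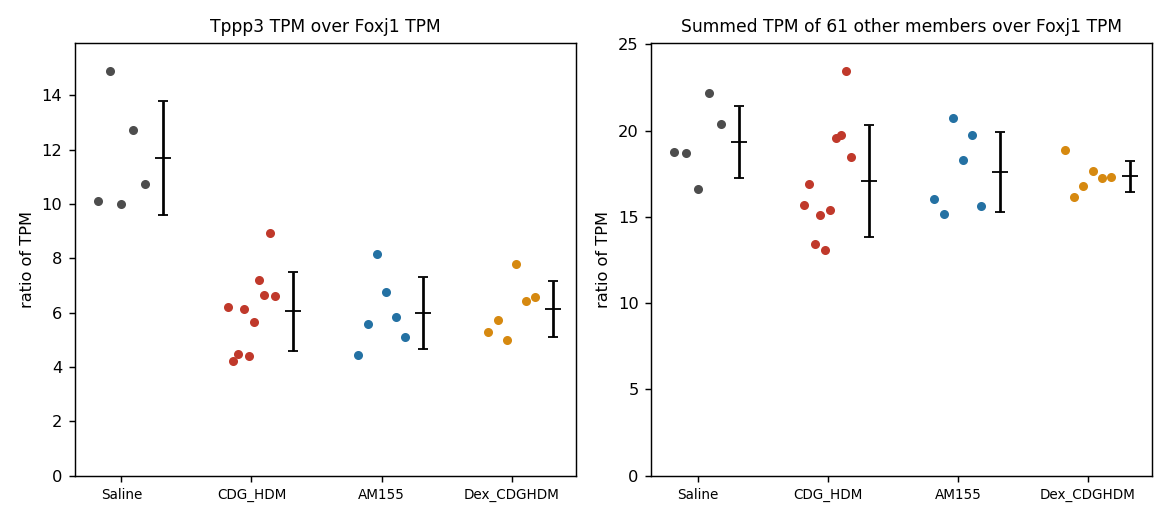
Ratio of Tppp3 to Foxj1 TPM (left) and of the summed TPM of the 61 members outside the programme to Foxj1 TPM (right) in each library, by group, with the mean ± SD. On the left, Saline libraries lie at 10.0 or more and all others at 8.92 or less; on the right, the groups overlap.

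Genes of motile cilia outside the name patterns were counted in lists, to be read beside the 22.8% of all genes that fell and the 9.35% that rose. Of 50 tested further axonemal and assembly genes, 34 fell and none rose in CDG_HDM (limma, median -0.40). Dynlrb2, a dynein light chain, differed by -0.51, Lrrc23, of the radial spokes, by -0.73 and Ccdc114, which docks outer arms, by -0.20 (adjusted p = 0.127). Of 22 other genes of ciliated cells 16 fell and none rose (median -0.41), among them the tubulin gene Tubb4b (-0.35) and Fam183b (-0.75), while Tuba1a differed by -0.29 (adjusted p = 0.0544). Of 25 intraflagellar transport genes, which primary cilia of other cells use too, 9 fell and none rose (median -0.21). Of 14 further genes of the multiciliation programme 3 fell and none rose (median -0.16), a share of falls near that of all genes, with Tfdp1 at 0.053 and E2f4 at -0.12, partners in cell cycle and multiciliation transcription complexes (adjusted p = 0.747 and 0.286), and Cep63, a centriole gene, at -0.33 (adjusted p = 0.0167).

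Markers of other cells moved in the same comparison. Of 10 club cell markers, the other main cell of the mouse airway lining, 9 fell, and their summed level was 71890 to 83570 TPM in Saline and 24810 to 55110 TPM in CDG_HDM. Scgb1a1, the club cell secretoglobin, differed by -1.16. Of 8 markers of alveolar type 1 cells 7 fell (3180 to 4209 TPM in Saline, 1859 to 3138 TPM in CDG_HDM), and of 8 of alveolar type 2 cells 3 rose (21410 to 23490 against 20110 to 29680 TPM). Of 8 pan-epithelial markers 4 fell (592 to 665 against 367 to 529 TPM), and of 8 basal and goblet cell markers 1 fell (18.2 to 38.8 against 15.4 to 25.6 TPM). Macrophage markers rose in 8 of 8 cases (236 to 264 against 664 to 1501 TPM), T cell markers in 7 of 8 (91.7 to 163 against 235 to 389 TPM) and B and plasma cell markers in 5 of 8 (83.0 to 200 against 1944 to 3763 TPM). Markers of the cardiac muscle around pulmonary veins fell in 6 of 6 cases (417 to 1238 against 70.7 to 311 TPM). Every marker of these lists was above 0 in all 27 libraries except Krt15, a basal cell keratin, in 26. The part of these shifts in the members' differences was not tested.

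Circular RNA was listed for 17 of the 66 members, in a table of 4416 genes. Dnah7a was above 0 in 25 of the 27 libraries, at 2.25 to 3.62 TPM in Saline and 0 to 2.72 TPM in CDG_HDM, where 8 of 10 libraries were above 0. Circular RNA of the other 16 members was above 0 in 13 libraries or fewer. Rfx3 reached 29.7 TPM in a single CDG_HDM library, and Cfap36 reached 22.7 TPM in Saline. With so many values listed at 0, these levels were not tested.

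Dexamethasone in sensitized mice was compared with sensitization alone. Of the 66 members, none fell and none rose (limma), beside 0.00573% and 0% of all genes, and the median difference was 0.013. At an unadjusted p of 0.05, 1 member passed, against 3.98% of all genes: Dnah14, with 7.86, 10.4 and 12.5 TPM (lowest, median, highest) in Dex_CDGHDM, a difference of -0.27 ± 0.12 and an adjusted p of 1. Tppp3 in Dex_CDGHDM was 157, 208 and 230 TPM. It lay within the range of CDG_HDM, with a difference of 0.0042 and a 95% interval from -0.25 to 0.26. The interval was -0.38 to 0.31 for Foxj1, -0.32 to 0.25 for Dnaic1, -0.22 to 0.34 for Dnah6 and -0.17 to 0.48 for Cfap161. Across the members the median half-width of these unadjusted intervals was 0.24. Dnah8, with a mean of 6.99 TPM in Dex_CDGHDM and 9.04 TPM in CDG_HDM, had the lowest difference (-0.32, interval -0.67 to 0.023).

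AM155 was compared with the same CDG_HDM libraries. Again none of the 66 members fell and none rose (limma), beside 0.0115% and 0.0918% of all genes, and none passed an unadjusted p of 0.05, against 7.24% of all genes. The median difference was -0.038, against -0.077 over all genes. Tppp3 in AM155 was 137, 183 and 251 TPM (lowest, median, highest), with a difference of -0.099 and an interval from -0.35 to 0.15. Foxj1 was 20.2, 33.2 and 45.1 TPM, again over a wide range. Its interval ran from -0.43 to 0.25. The interval was -0.34 to 0.23 for Dnaic1, -0.32 to 0.24 for Dnah6 and -0.37 to 0.29 for Cfap161. The direct comparison of Dex_CDGHDM with AM155 also called none (limma), beside 0.0631% of all genes lower and 0.0172% higher, and no member passed an unadjusted p of 0.05 (7.38% of all genes did). Under every setting tried, these 3 comparisons called no member.

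Both treated groups were also set against Saline, the control that the first comparison used. In Dex_CDGHDM 33 members fell and 1 rose, beside 17.5% and 7.59% of all genes, with a median of -0.35 against -0.11 over all genes. Tppp3 differed by -1.14, Dnah14 by -0.81, Dnaic1 by -0.75, Cfap161 by -0.66 and Cfap100 by -0.65. Without Saline 5 Cfap100 missed the threshold (-0.55, adjusted p = 0.0524). Of the roles, 8 of 10 inner arm chains, 4 of 5 tektins, both intermediate chains and 11 of 26 CFAP genes fell, and 2 of 5 outer arm chains. Ccno fell by 0.31 (adjusted p = 0.00765), and Foxj1 differed by -0.21 (adjusted p = 0.471). Dnaaf3 rose by 0.33 (adjusted p = 0.0359, limma), with all Dex_CDGHDM libraries, at 6.36 to 9.22 TPM, above all Saline libraries. Without AM155 5, AM155 6 and Dex_CDGHDM 4 together, the same 33 members fell as with all libraries. The count of falls was 18 without Saline 10, 20 without Dex_CDGHDM 4 alone and 51 without Saline 4 and AM155 6. It was 20 with tables rescaled to equal sums. After that rescaling 10.3% of all genes were called lower. For the fits that leave out libraries the share of all genes was not worked out, so those counts cannot be set beside it. Dnaaf3 missed the threshold in 6 of the fits that leave out a library, without Saline 2, 4 or 8 or Dex_CDGHDM 1, 3 or 5.

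In AM155 44 members fell and none rose (limma), beside 32.7% and 7.82% of all genes, with a median of -0.42 against -0.17. Tppp3 differed by -1.24, Cfap161 by -0.85, Cfap46 by -0.79, Dnaic1 by -0.78 and Cfap100 by -0.74. All 10 inner arm chains fell, as did both intermediate chains, 4 of 5 tektins, 4 of 6 radial spoke genes and 17 of 26 CFAP genes. Foxj1 differed by -0.26 (adjusted p = 0.289), Ccno by -0.17 (adjusted p = 0.0986, and 0.0412 without AM155 3) and Dnaaf3 by 0.26 (adjusted p = 0.0728). Above 0, an unadjusted p of 0.05 was passed by Dnaaf3 and by Dnah8 (0.46). With tables rescaled to equal sums 22 fell and 3 rose (Cfap36, Dnah8 and Dnaaf3), beside 12.3% and 26.9% of all genes. Foxj1 then differed by 0.012. Without AM155 5, AM155 6 and Dex_CDGHDM 4, 17 fell and 1 rose. The share of all genes called in that fit was not worked out, so these counts have no share to be read beside. Tppp3, Dnaic1, Dnah6, Cfap161 and Cfap46 were among 15 members that fell under every setting tried apart from the 5 TPM filter, which leaves some members out. How many of all genes fell under every one of those settings was not counted.

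**Figure D5:**
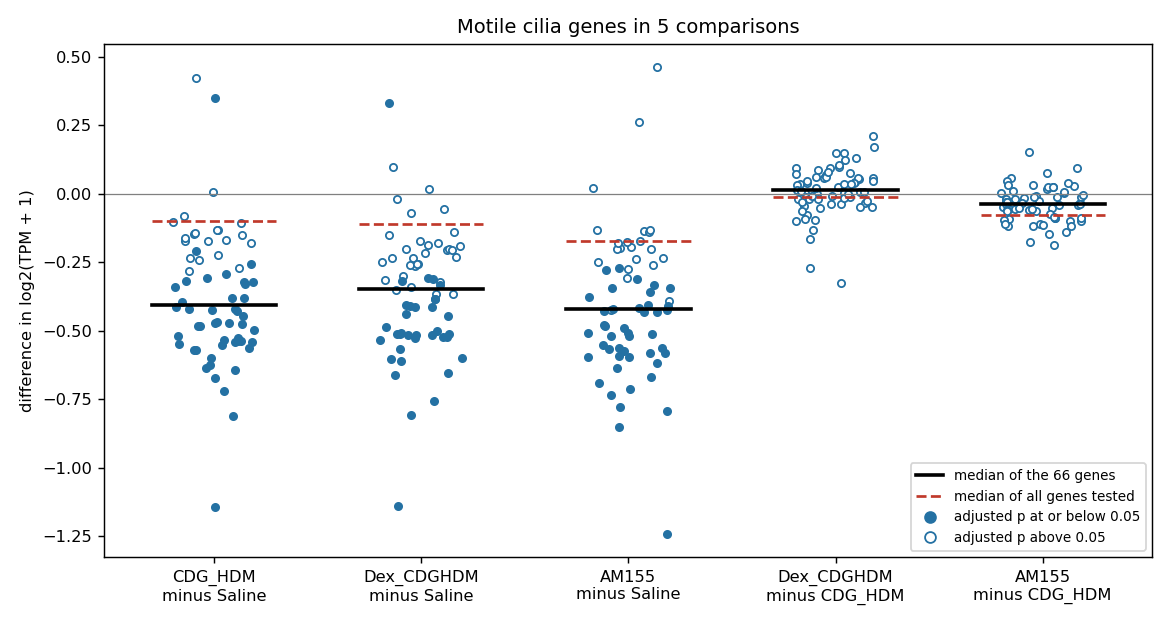
Difference in log2(TPM + 1) of each of the 66 members in 5 comparisons; filled points had an adjusted p of 0.05 or less. The members' median (black) lies at -0.40, -0.35 and -0.42 against Saline, under that of all genes (dashed red), and at 0.013 and -0.038 in the comparisons with CDG_HDM.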

How the data were processed

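RNA was measured in 27 libraries from rRNA-depleted, stranded, paired-end sequencing, per the labels' protocols. The deposited tables hold TPM values per gene, made by the authors separately for linear and circular RNA. The build mm10 and CASAVA 1.9 are named per the submitters' processing notes; for the aligner, quantifier and use of strand, the step is not given in the sources used here. TPM keeps no depth, so the sequencing depth is unknown and no counting interval is given. RNA integrity numbers were 6.9 to 8.6, per the labels.

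The values were analysed as log2(TPM + 1). Genes that reached 1 TPM in 5 or more of the 27 libraries were fitted with limma 3.58.1 in R 4.3.3, with all 4 groups in 1 model, a mean-variance trend and Benjamini-Hochberg adjustment over all genes in each of 6 comparisons. The script was tested on simulated data. Comparisons against Saline share its 5 libraries, and those against CDG_HDM its 10. Intervals are 95% intervals of the fit.

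The members and lists were chosen with earlier results of these data known. Genes named with values are the programme genes and Tppp3, the 10 largest called falls and the called rises of CDG_HDM against Saline, up to 5 called per direction in other comparisons, the most abundant member of each role, members called against the majority, and the 3 most abundant genes of each further list. Other members are named to account for the whole of a role. Alternatives were the pseudocount (0.1), the filter (none, 5 TPM), scaling (median of ratios, quantile, equal sums), no trend, only the 2 groups compared, a replicate block and leaving out libraries. Positions are from GENCODE M21 and promoters from RefSeq.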

Additional observations from a re-analysis of the deposited data

Results flagged for a closer look

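Each member was checked for a library far from the rest of its group, by the gap to the nearest library as a share of the group's range (Dixon's 95% limit). Of 264 member and group pairs, 9 passed; chance gives about 1 in 20 groups. Cfap61 was high in CDG_HDM 5, at 56.85 TPM against 23.16 to 35.23 TPM in the other 9 libraries. Rfx3 was high in the same library, at 16.12 TPM against 6.909 to 11.44 TPM. Drc3 was low in Saline 4, at 22.49 TPM against 33.34 to 37.44 TPM, and in Dex_CDGHDM 4, at 22.16 TPM against 28.09 to 30.37 TPM. Dex_CDGHDM 4 was also low for Rsph4a, at 5.51 TPM against 7.094 to 8.045 TPM, and for Dnah7c, at 0.961 TPM against 1.351 to 1.583 TPM. Mcidas was low in Saline 4, at 1.732 TPM against 2.564 to 2.903 TPM. Cfap100 was high in Saline 5, at 23.98 TPM against 15.65 to 17.7 TPM, and Ccno in Dex_CDGHDM 6, at 1.042 TPM against 0.6201 to 0.7554 TPM.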

How the results depend on the processing

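TPM holds no depth, so counting error is not known. Against Saline, the counts of members called (45 lower and 1 higher in CDG_HDM, 33 and 1 in Dex_CDGHDM, 44 and 0 in AM155) moved as follows. With libraries left out in turn, the lower counts ran from 30 to 52, 18 to 41 and 30 to 51. The higher counts ran from 1 to 2, 0 to 1 and 0 to 2. For every fit that leaves out libraries, here and below, the share of all genes called was not worked out. Those counts are therefore no measure of the members apart from other genes. With tables rescaled to equal sums, 3 were higher in CDG_HDM, 20 lower in Dex_CDGHDM, and 22 lower and 3 higher in AM155. Of all genes, that rescaling called 26.2% higher in CDG_HDM, 10.3% lower in Dex_CDGHDM, and 12.3% lower and 26.9% higher in AM155. Median-of-ratios scaling and quantile normalization each gave 2 higher in CDG_HDM and 2 in AM155. They called 22.4% and 20.5% of all genes higher in CDG_HDM, and 20.2% and 18.7% in AM155. The 5 TPM filter, which tests fewer members, gave 29 of 46 lower in AM155, beside 36.3% of the genes it tests. Without Saline 4 and AM155 6, 51 were lower in Dex_CDGHDM and 1 higher in AM155. Without AM155 5, AM155 6 and Dex_CDGHDM 4, an alternative chosen after seeing the data, 17 were lower and 1 higher in AM155. The labels do not say whether replicate numbers pair libraries. Across 20 same-numbered pairs the correlation of deviations was -0.24 to 0.27, over 0.1 in 2. Across 246 other-numbered pairs it was -0.47 to 0.47, over 0.1 in 69. With 3 or 4 same-numbered pairs for any 2 groups, these values cannot exclude pairing. With a replicate block 19 were lower and 0 higher in CDG_HDM, and 21 and 0 in Dex_CDGHDM. Of all genes, 12% were then lower and 6.99% higher in CDG_HDM, and 10.7% and 5.4% in Dex_CDGHDM. In the same fit Foxj1 differed by 0.0043 and Rfx3 by 0.072 in CDG_HDM. The summed Saline level was 1079 TPM after rescaling and 1114 TPM after median-of-ratios scaling. The sign turned for some members not called with all libraries in the fit. In CDG_HDM, Rfx3 was 0.0019 after rescaling, and Dnaaf2 ran from -0.035 to 0.034 with libraries left out, was -0.035 without Saline 4 and AM155 6, and was called higher after rescaling (0.16, adjusted p = 0.0219). In Dex_CDGHDM, Dnaaf2 was 0.047, 0.028 and 0.12 under median-of-ratios, quantile and rescaling, and Drc3 0.029 after rescaling. In AM155, rescaling gave Foxj1 0.012, Rfx3 0.058, Cfap61 0.034, Dnaaf2 0.12, Drc3 0.040 and Rsph9 0.075, and Dnaaf2 was 0.051 and 0.027 under median-of-ratios and quantile. Without the 3 libraries of large circular share, Foxj1 was 0.012, Rfx3 0.00092, Cfap61 0.15 and Dnaaf2 0.011. The cause of these moves was not tested.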
